A study of Mus musculus with 12 samples.

Results

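Annexins are calcium-dependent proteins that bind the inner face of phospholipid membranes, and some of them dock a small calcium-binding protein of the S100 family. The mRNA of 8 annexins (Anxa1, Anxa2, Anxa3, Anxa4, Anxa5, Anxa6, Anxa7 and Anxa11) and 2 S100 partners (S100a10 and S100a11) was followed in cultured mouse brain endothelial cells (BECs). These 10 genes were taken by symbol from the 29965 genes listed for the normoxic and normoglycemic (NX/NG) libraries and the 29775 genes listed for the OGD-R libraries, which came from cells deprived of oxygen and glucose and then reoxygenated. A total of 27321 genes, all 10 members included, were listed in both.

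BECs were isolated from brains of Cort+/+ mice and of Cort-/- mice, which are null for the neuropeptide cortistatin, with the strain given as C57BL/6 in the labels and as C57BL/6J in the methods. Each biological replicate was pooled from 3 mice and grown as a primary culture. In the NX/NG groups the cells were kept for 24 h at 21% O2 with 5.5 mM glucose. In the OGD-R groups they spent 4 h at 1% O2 without glucose or serum, followed by 20 h of reoxygenation in complete medium. The labels name a stroke model as disease state for every sample, although all of the RNA came from cultures. Libraries 1, 2 and 3 of both Cort+/+ groups, libraries 1 and 2 of the Cort-/- NX/NG group and libraries 1 and 3 of the Cort-/- OGD-R group were analysed, 10 of the 12 samples listed. Cort itself was at the limit of detection, with 2, 1 and 1 reads in the Cort+/+ NX/NG libraries, 0, 0 and 1 in the Cort+/+ OGD-R libraries and 0 in all 4 Cort-/- libraries, so that the deletion could not be checked at this depth.

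All 10 libraries held between 12386048 and 12390428 reads on genes. The ribosomal RNA gene Rn18s-rs5 held 0.0775% of them in Cort+/+ OGD-R library 1 and 0.0951% in Cort-/- OGD-R library 3, compared with 7.64% to 15.8% in the other 8. Genotype differences under OGD-R are given with and without these 2 libraries for the members that the results turn on. Without them, library 1 is the only Cort-/- OGD-R library left, so such values rest on that library. All 11 endothelial markers, such as Cldn5, Pecam1 and Cdh5, were above 0 in every library, with a summed level between 1194.0 and 1730.0 RPKM (reads scaled by gene length and library size). The 6 smooth muscle markers summed to 1001.0 to 1820.0 RPKM. Most of this was Acta2 and Tagln, while Myh11 had 0.506 to 2.11 RPKM and Des at most 0.369 RPKM. Up to 3 of the 10 fibroblast and leptomeningeal markers were at 0 or not listed while the rest summed to between 86.5 and 364 RPKM. Neuronal and oligodendrocyte markers stayed at or below 1.06 RPKM in sum. In such bulk RNA, fewer cells of a type and less RNA per cell cannot be told apart.

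In endothelium, the annexin A2 and S100A10 proteins form a complex at the cell surface that gathers plasminogen and its activator tPA, and S100A10 is stabilised by binding to annexin A2. Annexin A1 is a glucocorticoid-induced protein that limits leukocyte recruitment and supports the blood-brain barrier, and it can dock S100A11. Annexin A5 covers exposed phosphatidylserine and is best known as the probe for dying cells, while annexins A4, A5 and A6 also take part in resealing of torn membranes together with A1 and A2.

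S100a11 had the highest level of the family and Anxa4 the lowest, with a span from 882 to 9.67 RPKM in the mean of the 10 libraries. Levels in RPKM are divided by the listed gene length, so the order of the genes depends on these lengths. By reads, Anxa2 was above Anxa5 and S100a11 in every library. The reads were 9860 to 15281 for Anxa2, 6904 to 9883 for Anxa5 and 4811 to 6615 for S100a11. Their listed lengths were 3731, 1777 and 511 bases. Anxa5 followed S100a11 with 363 RPKM, then Anxa2 with 256 RPKM, Anxa1 with 192 RPKM and Anxa6 with 185 RPKM. This placed S100a11 between rank 22 and rank 40 of all genes in the separate libraries and Anxa5 between rank 72 and rank 96. S100a10 and Anxa3 came next, with 108 and 106 RPKM. Anxa7 had 37.0 RPKM and Anxa11 averaged 12.97 RPKM. The order was the same in every library for all neighbours but 2 pairs. Anxa1 was above Anxa6 in 5 of 10 libraries and S100a10 above Anxa3 in 6 of 10, so neither pair kept its order over all libraries. Anxa2 was above Anxa1 in 10 of 10, although their ranges over all libraries overlapped. Both swaps followed the groups in part: by group means Anxa1 and S100a10 stood higher than their neighbours in Cort+/+ cells, under NX/NG and under OGD-R, and lower in Cort-/- cells.

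**Figure D1:**
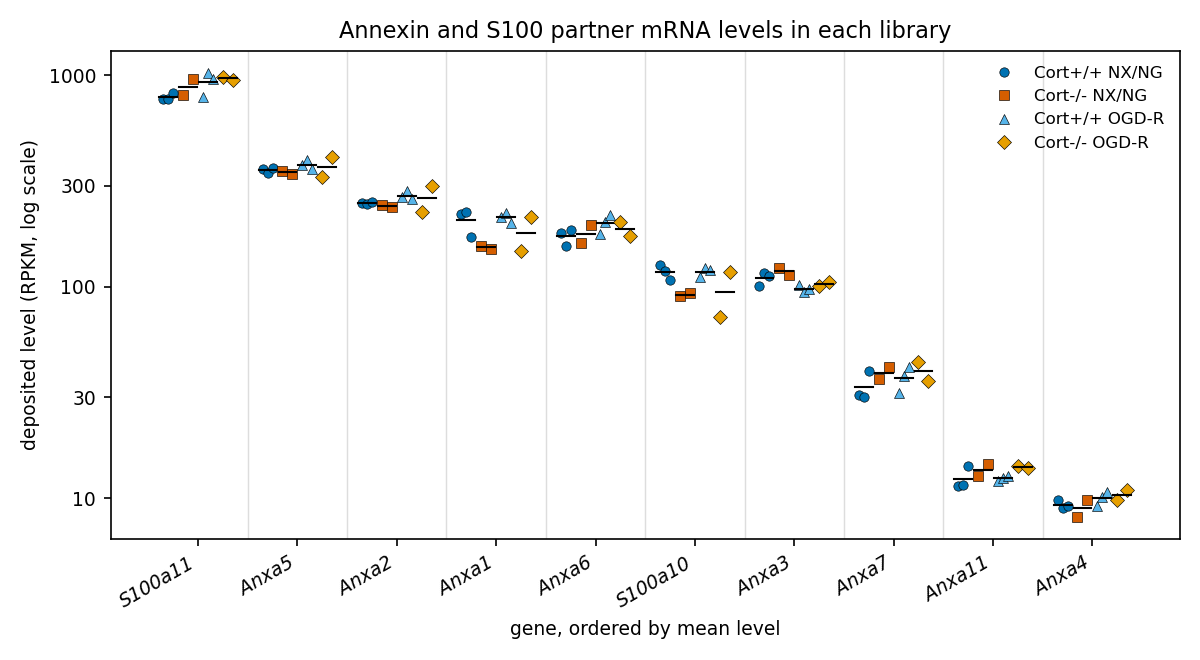
Deposited level in RPKM (log scale) of each member in each library, ordered by mean level, with 1 symbol per library and a line at each group mean. S100a11 lies between 768 and 1023 RPKM and Anxa4 between 8.18 and 10.9 RPKM, and the 4 groups differ by far less than the genes do.

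Together, the 10 genes received between 0.357% and 0.474% of the reads on genes. The highest shares, 0.474% in Cort-/- OGD-R library 3 and 0.441% in Cort+/+ OGD-R library 1, were those of the 2 libraries low in ribosomal RNA. Anxa5 alone made up between 29.9% and 32.3% of the summed RPKM of the 8 annexins. Anxa1, Anxa2, Anxa3, Anxa5 and Anxa6 made up between 93.7% and 95.6%, so that Anxa4, Anxa7 and Anxa11 were minor components in each library. Across the 10 libraries, scaled together, Anxa5 varied least with a coefficient of variation of 5.67%, against a median of 9.68% for the 7809 genes averaging 5 RPKM or more. Anxa1 and S100a10 varied most, with 16.3% and 16.1%.

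A promoter was held for 7 of the 10 members in the RefSeq table of GRCm38.p6, which covers 250 bases before and 50 bases after each start. S100a10, Anxa3 and Anxa6 had no entry. The 3 sequences below are shown because Anxa1 had the largest genotype difference among them, Anxa2 encodes the binding partner of S100A10, and S100a11 had the highest level. Capitals mark TATAAA, the core of a TATA box, and ACGTG, the core of a hypoxia response element, on either strand (CACGT on the printed strand is ACGTG on the other, and CACGTG holds it on both).
Anxa1, chr19:20390622-20390921, minus strand: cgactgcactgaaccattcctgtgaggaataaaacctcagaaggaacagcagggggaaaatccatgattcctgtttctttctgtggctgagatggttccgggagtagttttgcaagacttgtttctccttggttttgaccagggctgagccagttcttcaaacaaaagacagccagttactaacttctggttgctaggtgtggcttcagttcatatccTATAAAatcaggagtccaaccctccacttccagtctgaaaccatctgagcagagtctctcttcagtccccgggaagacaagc
Anxa2, chr9:69453433-69453732, plus strand: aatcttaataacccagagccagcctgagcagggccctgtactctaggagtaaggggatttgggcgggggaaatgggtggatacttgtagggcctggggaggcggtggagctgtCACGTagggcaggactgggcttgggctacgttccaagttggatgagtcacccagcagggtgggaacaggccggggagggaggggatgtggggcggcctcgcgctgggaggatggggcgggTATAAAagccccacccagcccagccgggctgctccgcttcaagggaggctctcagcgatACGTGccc
S100a11, chr3:93520246-93520545, plus strand: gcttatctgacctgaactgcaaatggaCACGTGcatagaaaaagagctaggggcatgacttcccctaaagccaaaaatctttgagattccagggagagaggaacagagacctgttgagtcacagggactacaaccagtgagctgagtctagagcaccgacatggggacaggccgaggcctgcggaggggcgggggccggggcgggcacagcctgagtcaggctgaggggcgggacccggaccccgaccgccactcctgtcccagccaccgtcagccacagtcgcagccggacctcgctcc
The 7 members had 9 promoters in all, since Anxa4 and Anxa7 had a pair each. ACGTG was found in 4 of the 9 (of Anxa2, Anxa5, Anxa7 and S100a11), against 19.6% of 32851 promoters in the table, and TATAAA in 2 of 9 (of Anxa1 and Anxa2), against 13.6%. The CCAAT box was found in 0 of 9, with 37.4% of all promoters holding it. These matches describe the letters of the window only.

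The first question of the design was whether cortistatin deficiency changed the family under NX/NG. In the test across all genes, 0 of 10 members were called at a false discovery rate (FDR) of at most 0.05, and the percentage of all genes called was 0 (limma on log2(RPKM + 0.1)). At an unadjusted p under 0.05, 2 of 10 members differed, S100a10 and Anxa1, both lower in Cort-/- cells, with 8.39% of all genes and 13.5% of genes of at least 1 RPKM passing. limma-voom on recovered reads gave 0 members called and 3 under the unadjusted threshold. Members were split evenly, 5 with a higher and 5 with a lower mean in Cort-/- cells, with a median log2 fold change of -0.0024 beside 0.0093 for all genes of at least 1 RPKM.

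S100a10 encodes the light chain of the annexin A2 complex and lies on chromosome 3 (93555080 to 93564643, plus strand, GRCm38). Its level under NX/NG was 126, 118 and 107 RPKM in the 3 Cort+/+ libraries and 89.9 and 93.0 RPKM in the 2 Cort-/- libraries. Both Cort-/- libraries were below all 3 Cort+/+ libraries. The log2 fold change was -0.35 (SE 0.083, 95% interval -0.57 to -0.14, limma adjusted p = 0.369, unadjusted 0.00797). Leaving out each library in turn gave between -0.42 and -0.30, and adjusted p-values over the alternatives ran from 0.0917 to 0.715.

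Under OGD-R the levels of S100a10 were 111, 123 and 120 RPKM in Cort+/+ cells and 71.7 and 118 RPKM in Cort-/- cells. The 2 Cort-/- libraries disagreed: library 1 was the lowest of all 10, and library 3 lay inside the Cort+/+ range. The log2 fold change was again -0.36, but with an SE of 0.224 and an interval from -0.92 to 0.21. Without Cort-/- library 1 it was -0.0012, and without Cort-/- library 3 it was -0.71. Library 3 is one of the libraries low in ribosomal RNA. Without both of these the value was -0.76, with library 1 the only Cort-/- library left. The part of the ribosomal RNA in this value was not tested beyond these fits.

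Anxa2, the heavy chain of the same complex, had 249, 246 and 251 RPKM in Cort+/+ and 243 and 239 RPKM in Cort-/- cells under NX/NG. The groups did not overlap, but the log2 fold change was -0.05 (SE 0.062), with an interval from -0.20 to 0.11. Under OGD-R, Anxa2 had 264, 284 and 259 RPKM in Cort+/+ and 225 and 300.2 RPKM in Cort-/- cells, where the Cort-/- libraries lay on either side of the Cort+/+ range (log2 fold change -0.05, SE 0.188). Without both libraries low in ribosomal RNA it was at -0.27, with the lower Cort-/- library the only one of its group left.

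The ratio of S100a10 to Anxa2 within a library does not depend on how the library was scaled. Under NX/NG this ratio of RPKM was 0.506, 0.482 and 0.427 in Cort+/+ and 0.370 and 0.390 in Cort-/- cells. After OGD-R it was 0.419, 0.433 and 0.462 in Cort+/+ and 0.319 and 0.392 in Cort-/- cells. In both environments the Cort-/- libraries lay below all Cort+/+ libraries. The mean log2 ratio was -1.09 ± 0.127 (SD, n = 3) against -1.40 ± 0.0523 (SD, n = 2) under NX/NG, a difference of -0.31. The OGD-R difference was also -0.31, from -1.19 ± 0.0733 (SD, n = 3) to -1.50 ± 0.211 (SD, n = 2). Each gave p = 0.2 in a two-sided exact permutation test over the 10 possible labellings, which is the smallest p that 3 against 2 libraries allow. Leaving out each library in turn gave differences between -0.38 and -0.25 under NX/NG and between -0.46 and -0.16 under OGD-R. The OGD-R difference was -0.16 without Cort-/- library 1 and -0.46 without Cort-/- library 3. In a group of 2 libraries, leaving out either one moves the mean equally far, in opposite directions. Without both libraries low in ribosomal RNA the OGD-R difference was -0.49, with library 1 the only Cort-/- library left.

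Anxa1, on chromosome 19 (20373428 to 20390944, minus strand), had 220.1, 226 and 171 RPKM in Cort+/+ and 156 and 151 RPKM in Cort-/- cells under NX/NG. All Cort-/- values were below all Cort+/+ values, although Cort+/+ library 3 was close to them. The log2 fold change was -0.41 (SE 0.139, interval -0.77 to -0.06, limma adjusted p = 0.534, unadjusted 0.0312). Over the leave-one-out fits it ran from -0.54 to -0.34. After OGD-R, Anxa1 had 214, 224 and 199 RPKM in Cort+/+ and 147 and 213 RPKM in Cort-/- cells. As for S100a10, Cort-/- library 1 was low and library 3 was within the Cort+/+ range. The log2 fold change was -0.26 (SE 0.199), and it was 0.0057 without library 1 and -0.53 without library 3. Without both libraries low in ribosomal RNA it was -0.52, with library 1 the only Cort-/- library left.

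**Figure D2:**
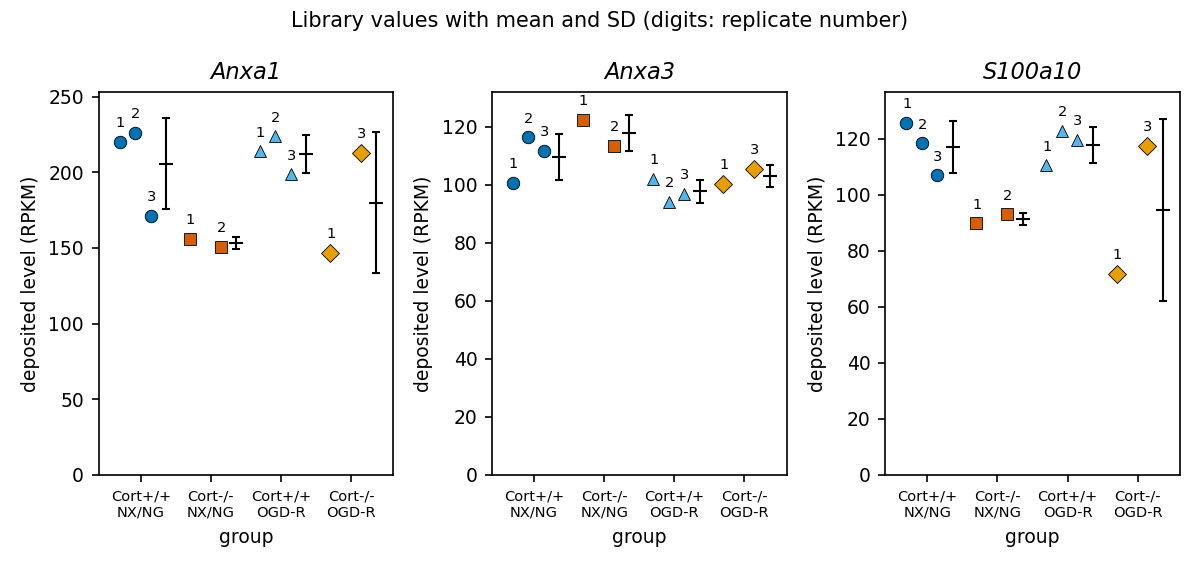
Deposited level in RPKM of Anxa1, Anxa3 and S100a10 by group, with 1 symbol per library, its replicate number above it, and the group mean and SD beside the symbols. Under NX/NG both Cort-/- libraries lie below all Cort+/+ libraries for Anxa1 and S100a10, while under OGD-R only library 1 does.

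S100a11 encodes the partner of annexin A1 and starts 0.0346 Mb from S100a10 in the S100 gene cluster of chromosome 3 (93520488 to 93526287, plus strand). Its level under NX/NG was 768, 770.2 and 825 RPKM in Cort+/+ and 805 and 959 RPKM in Cort-/- cells, with overlapping groups (log2 fold change 0.16, SE 0.136). Under OGD-R it was 787, 1023 and 959 RPKM in Cort+/+ and 979.8 and 949 RPKM in Cort-/- cells (log2 fold change 0.07, SE 0.313). S100a11 shared 44.7% of its 40-base words with 5 other annotated genes, S100a11-ps among them, so that reads may have been divided between copies and its level is uncertain. S100a10, Anxa1, Anxa5 and Anxa6 shared none.

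The ratio of S100a11 to Anxa1 was 3.49, 3.41 and 4.82 in Cort+/+ and 5.15 and 6.36 in Cort-/- cells under NX/NG, with no overlap. It was 3.68, 4.57 and 4.83 in Cort+/+ and 6.67 and 4.46 in Cort-/- cells after OGD-R, where the groups overlapped. The differences in mean log2 ratio were 0.57 under NX/NG (two-sided exact permutation p = 0.2, n = 3 against 2) and 0.33 under OGD-R (exact permutation p = 0.6, n = 3 against 2). The latter was 0.043 without Cort-/- library 1 and 0.62 without Cort-/- library 3, and 0.51 without both libraries low in ribosomal RNA.

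**Figure D3:**
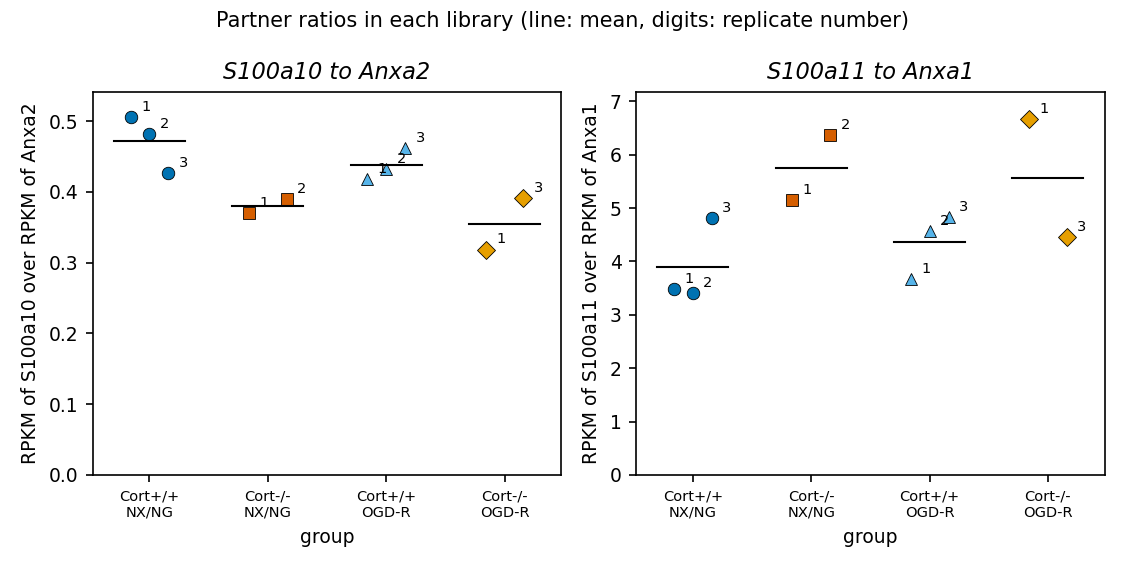
Ratio of RPKM of S100a10 to Anxa2 (left) and of S100a11 to Anxa1 (right) in each library by group, with replicate numbers and a line at the mean ratio. S100a10 to Anxa2 lies between 0.427 and 0.506 in Cort+/+ and between 0.370 and 0.390 in Cort-/- cells under NX/NG, and the gap keeps its direction under OGD-R.

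For the other annexins with high levels the genotype groups overlapped. Anxa5 ranged from 343 to 362 RPKM in Cort+/+ and from 342 to 352 RPKM in Cort-/- cells under NX/NG (log2 fold change -0.03, interval -0.23 to 0.16). Under OGD-R its range was 358 to 395 RPKM in Cort+/+ and 331 to 408 RPKM in Cort-/- cells. Anxa6, the largest protein of the family and a regulator of cholesterol and endosome traffic, spanned 155 to 186 RPKM in Cort+/+ and 160.1 to 194 RPKM in Cort-/- cells under NX/NG (log2 fold change 0.03, interval -0.29 to 0.35). Its OGD-R values overlapped as well (log2 fold change -0.08, SE 0.163). Anxa3, a gene linked to endothelial migration, had 101, 116 and 112 RPKM in Cort+/+ and 122 and 113 RPKM in Cort-/- cells under NX/NG, with overlap (log2 fold change 0.11, SE 0.084).

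Of the members with low levels, Anxa11 and Anxa7 had higher means and Anxa4 had no uniform direction in Cort-/- cells. Anxa11, whose protein links RNA granules to lysosomes, was the only member whose groups did not overlap under OGD-R. It had 12.1, 12.5 and 12.8 RPKM in Cort+/+ and 14.2 and 13.9 RPKM in Cort-/- cells (log2 fold change 0.18, SE 0.079, interval -0.02 to 0.37, limma adjusted p = 0.978, unadjusted 0.0723), and the log2 fold change was 0.17 without both libraries low in ribosomal RNA. Under NX/NG its groups overlapped, with 11.4, 11.6 and 14.1 RPKM against 12.7 and 14.5 RPKM. Anxa11 shared 16.7% of its 40-base words with other genes, including its antisense gene Anxa11os, and whether the authors counted by strand is not given in the sources used here. Anxa7 ran from 30.04 to 39.9 RPKM in Cort+/+ and from 36.6 to 41.7 RPKM in Cort-/- cells under NX/NG (log2 fold change 0.23, SE 0.147). Anxa4 had a log2 fold change of -0.06 (SE 0.095) under NX/NG and of 0.05 (SE 0.108) under OGD-R.

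Under OGD-R as a whole, 0 of 10 members were called between genotypes (0% of all genes) and 0 had an unadjusted p under 0.05, beside 3.42% of all genes. The counts with limma-voom were 0 and 0 as well. The groups did not overlap for 3 members under NX/NG, all lower in Cort-/- cells, and for 1 member under OGD-R, which was higher. Among all genes of at least 1 RPKM, 33.2% did not overlap in either direction under NX/NG and 16.6% under OGD-R, so the members' counts are near those of other genes.

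**Figure D4:**
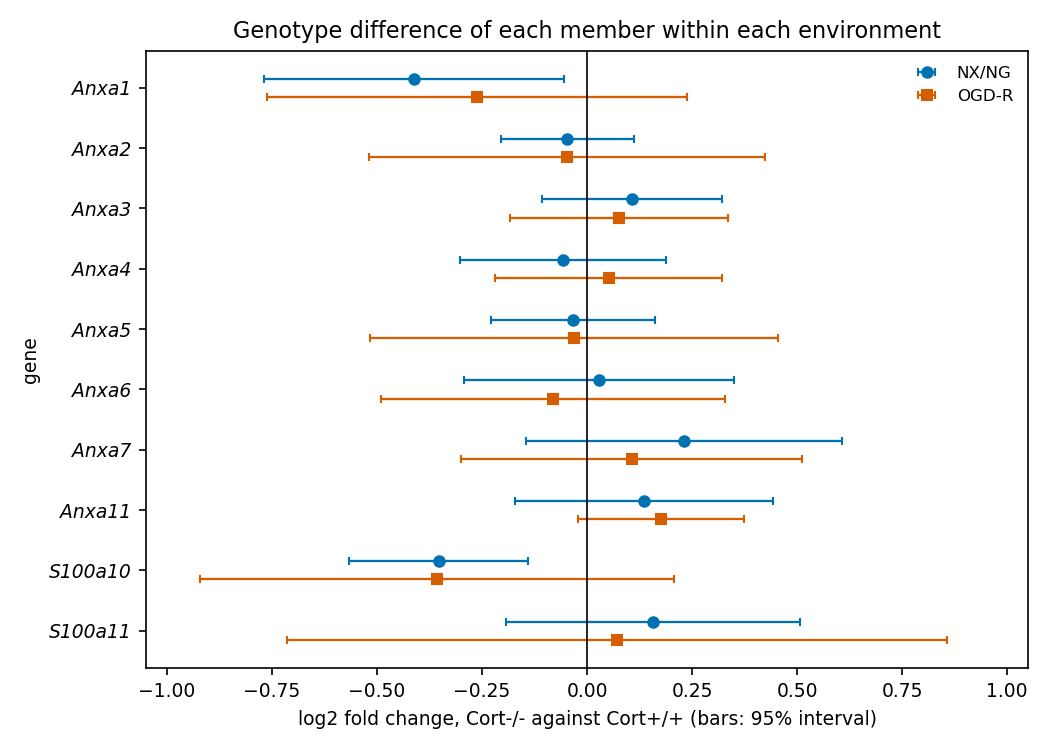
Log2 fold change of each member in Cort-/- against Cort+/+ cells with its 95% interval, under NX/NG (circles) and OGD-R (squares). The NX/NG intervals of Anxa1 (-0.77 to -0.06) and S100a10 (-0.57 to -0.14) lie below 0, and all OGD-R intervals include 0.

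With both environments combined in one fit, the mean genotype difference was -0.35 for S100a10 (SE 0.128, limma adjusted p = 0.406, unadjusted 0.0239) and -0.33 for Anxa1 (SE 0.124, limma adjusted p = 0.414, unadjusted 0.0266). Anxa11 followed with 0.16 (SE 0.072, limma adjusted p = 0.514). Among members 0 were called, against 0.0549% of all genes, and at an unadjusted p under 0.05 there were 2, against 10%. limma-voom also called 0 and gave 2. Each of the Cort-/- OGD-R libraries moved these values, in opposite directions. Without Cort-/- OGD-R library 1, S100a10 was at -0.17 and Anxa1 at -0.20, and without Cort-/- OGD-R library 3 they were at -0.53 and -0.47. Without both libraries low in ribosomal RNA, S100a10 was at -0.55 and Anxa1 at -0.46, with library 1 the only Cort-/- OGD-R library left.

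Under NX/NG, where both Cort-/- libraries were low in Anxa1 and S100a10, summed markers of other cell types also differed between the genotypes. Fibroblast and leptomeningeal markers summed to 212 to 298 RPKM in Cort+/+ and 86.5 to 126 RPKM in Cort-/- libraries. Most of this sum was Col1a1, Col1a2 and Col3a1. Of the 9 markers tested 4 had a lower value at an unadjusted p under 0.05 and 0 a higher one. Pdgfra went the other way in its range, at 0.319 to 0.366 against 0.485 to 0.706 RPKM. Pericyte markers summed to 20.2 to 23.6 RPKM in Cort+/+ and 8.61 to 11.3 RPKM in Cort-/- libraries. Astrocyte markers were also lower in sum, at 15.1 to 19.9 against 10.4 to 12.4 RPKM. Most of that sum was Gja1, at 13.5 to 18.6 against 7.77 to 10.4 RPKM. The astrocyte marker Aldh1l1 was higher, at 1.19 to 1.52 against 1.94 to 2.58 RPKM. Neuronal markers summed to 0.765 to 0.983 against 0.511 to 0.650 RPKM, most of it Reln. The sums were higher in Cort-/- libraries for endothelial markers, at 1194.0 to 1498.0 against 1533.0 to 1694.0 RPKM. The highest of these, Cdh5 (443 to 592 against 582 to 681 RPKM) and Pecam1 (152 to 205 against 201 to 236 RPKM), had overlapping ranges. Of the 11 endothelial markers 2 were higher and 0 lower at an unadjusted p under 0.05. Macrophage and microglial sums were higher as well, at 3.12 to 3.71 against 4.48 to 4.64 RPKM. Choroid plexus sums, at 13.3 to 16.2 against 16.3 to 16.4 RPKM, were barely apart. They were mostly Clic6, whose ranges overlapped, at 12.4 to 15.9 against 15.2 to 15.8 RPKM. Smooth muscle, epithelial and oligodendrocyte sums overlapped.

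Markers also differed between the Cort-/- OGD-R libraries, of which library 1 was low in S100a10 and Anxa1. Library 1 had less of the fibroblast (204 against 257 RPKM) and smooth muscle markers (1001.0 against 1503.0 RPKM) in sum than library 3. Of the fibroblast markers Pdgfra was higher in library 1, at 0.612 against 0.314 RPKM. Library 1 had more of the 10 epithelial and keratinocyte markers in sum, at 46.0 against 20.5 RPKM, with 0 of them at 0 against 5 in library 3. Of these only Krt19 was lower, at 5.38 against 11.4 RPKM. Library 1 also had more of the endothelial markers in sum, at 1730.0 against 1381.0 RPKM. Cdh5 had the largest difference, at 740 against 519 RPKM. Kdr (16.2 against 23.2 RPKM), Emcn (139 against 161 RPKM) and Flt1 (8.84 against 9.46 RPKM) were lower, and the other endothelial markers higher. The part of any of these markers in the values of S100a10 and Anxa1 was not tested.

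The second question was whether OGD-R changed the family within a genotype. For this the reads of both environments were scaled together, and the levels in this and the next paragraph are on that scale. In Cort+/+ cells 0 of 10 members were called (limma), beside 0.0332% of all genes, and 1 had an unadjusted p under 0.05, beside 5.48%. In Cort-/- cells 0 members were called, beside 0% of all genes, and 0 had an unadjusted p under 0.05, beside 4.08%. limma-voom called 0 in each and had 1 member under the unadjusted threshold in each. The member at the lowest p was Anxa3 in each case.

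Anxa3 (chromosome 5, 96793339 to 96845966, plus strand) had 103, 119 and 115 RPKM under NX/NG and 99.4, 91.8 and 94.6 RPKM after OGD-R in Cort+/+ cells. In Cort-/- cells it had 126 and 117 RPKM under NX/NG and 97.8 and 103 RPKM after OGD-R. On this joint scale all OGD-R libraries were below all NX/NG libraries in both genotypes. As deposited, Cort+/+ OGD-R library 1 (102.0 RPKM) was above Cort+/+ NX/NG library 1 (100.8 RPKM), so there the Cort+/+ groups overlapped. The log2 fold change was -0.24 in Cort+/+ (SE 0.080, interval -0.43 to -0.04, limma adjusted p = 0.881, unadjusted 0.0236) and -0.27 in Cort-/- cells (SE 0.109, interval -0.57 to 0.03, limma adjusted p = 0.922, unadjusted 0.0645). Anxa3 was thus 1 member without overlap in each genotype, where 12.997% of genes of at least 1 RPKM in Cort+/+ and 34.8% in Cort-/- cells did not overlap.

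Averaged over genotypes, the log2 fold change of Anxa3 after OGD-R was -0.25 (SE 0.061, interval -0.39 to -0.11, limma adjusted p = 0.453, unadjusted 0.00283). The value lay between -0.29 and -0.23 under all 18 alternatives, all of them with an unadjusted p under 0.05 and with adjusted p-values from 0.206 to 0.821. Without both libraries low in ribosomal RNA it was -0.29. No other member had an unadjusted p under 0.05 in this comparison, so the count was 1 of 10 beside 7.34% of all genes, and 0 of 10 were called beside 0.0220% of all genes. limma-voom gave 1 and 0.

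In Cort+/+ cells the log2 fold changes of the other 9 members lay between -0.06 for S100a10 and 0.15 for S100a11. Anxa5 had 0.01 (interval -0.24 to 0.26), Anxa2 had 0.04 (interval -0.17 to 0.25) and Anxa1 had -0.02 (interval -0.33 to 0.29). In Cort-/- cells the SE was larger for all members but Anxa7. There Anxa1 had 0.13 (interval -0.48 to 0.73) and S100a10 had -0.07 (interval -0.80 to 0.66), and both turned with the library left out. S100a10 was at 0.28 without Cort-/- OGD-R library 1 and at -0.43 without library 3, and Anxa1 at 0.39 and -0.14.

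**Figure D5:**
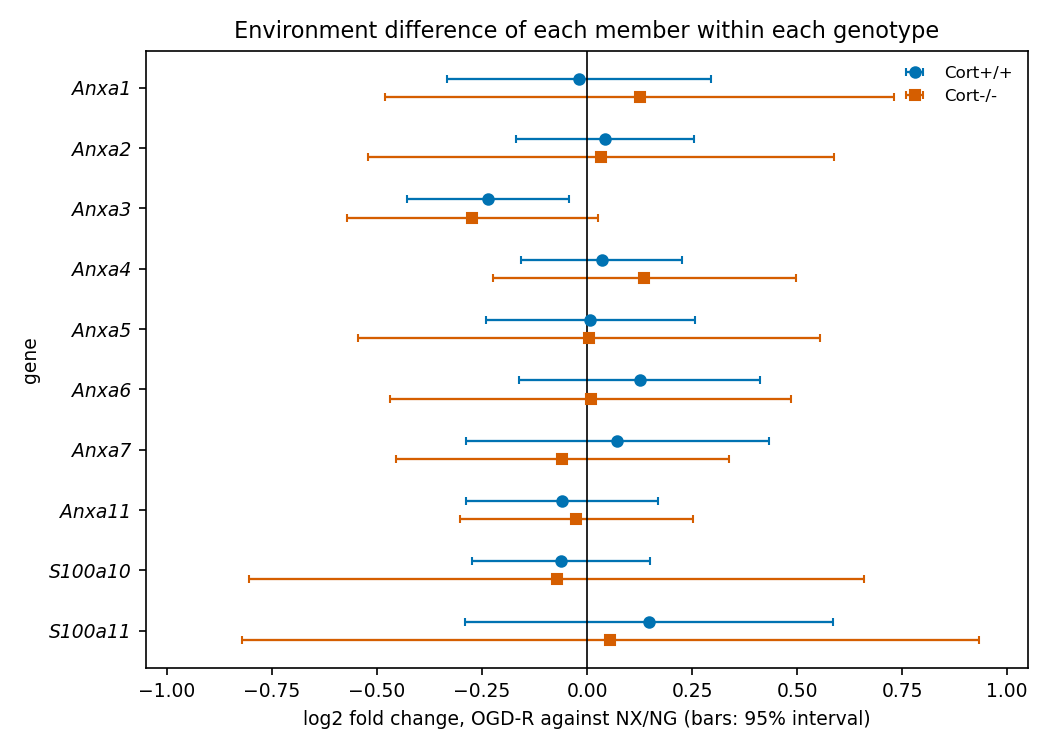
Log2 fold change of each member after OGD-R against NX/NG with its 95% interval, in Cort+/+ (circles) and Cort-/- cells (squares). Anxa3 is at -0.24 and -0.27, the lowest value in each genotype, and the other members lie between -0.07 and 0.15.

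Whether the response to OGD-R differed between genotypes was tested as an interaction. Of the 10 members 0 were called, beside 0.0110% of all genes, and 0 had an unadjusted p under 0.05, beside 2.85%, with 0 and 0 in limma-voom. The interaction was -0.04 for Anxa3 (interval -0.32 to 0.24), 0.14 for Anxa1 (interval -0.42 to 0.71) and -0.01 for S100a10 (interval -0.60 to 0.58). The last turned from -0.37 without Cort-/- OGD-R library 3 to 0.35 without library 1. Intervals of this width leave room for sizeable differences in either direction.

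Genes that work with the annexins were described from lists. In the plasminogen system the annexin A2 complex acts as a receptor. Of 10 genes of this system 0 were called in any of the 7 comparisons (limma), beside 0% to 0.0549% of all genes. Under NX/NG 2 had a lower value in Cort-/- cells at an unadjusted p under 0.05, beside 8.39% of all genes in either direction. These were Serpine2, a protease inhibitor, at -0.55 (SE 0.121), and Eno1, a glycolytic enzyme and plasminogen receptor, at -0.27 (SE 0.074). Serpinb2, another inhibitor, had a log2 fold change of 0.85 after OGD-R in Cort+/+ cells (SE 0.218, limma adjusted p = 0.861). The activator gene Plat had 9.41 ± 1.24 RPKM (SD, n = 3) in Cort+/+ cells under NX/NG.

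Annexin A1 is known to restrain cytosolic phospholipase A2 and, downstream of it, prostanoid synthesis. Of 5 genes of this route 0 were called in any comparison. Under NX/NG 2 were lower in Cort-/- cells at an unadjusted p under 0.05, where 8.39% of all genes passed and 0% were called. Ptgs1, a cyclooxygenase, averaged 11.9 ± 1.36 RPKM (SD, n = 3) in the wild type against 6.33 ± 0.104 RPKM (SD, n = 2), a log2 fold change of -0.89 (SE 0.105, limma adjusted p = 0.138). Ptges, a prostaglandin E synthase, was at -0.72 (SE 0.141, limma adjusted p = 0.29). Averaged over environments Ptgs1 was at -0.71 (SE 0.090, limma adjusted p = 0.0561). Ptgs2, the inducible cyclooxygenase, had the highest level, with 56.5 to 87.4 RPKM in Cort+/+ and 61.1 to 86.3 RPKM in Cort-/- cells under NX/NG. The phospholipase gene Pla2g4a had overlapping NX/NG ranges in Cort+/+ and Cort-/- cells, 8.40 to 12.2 RPKM and 8.69 to 11.1 RPKM. The formyl peptide receptors, through which extracellular annexin A1 signals, were near the limit of detection, and of the 7 genes considered only Fpr1 and Fpr2 had values. Fpr1, the higher of them, had at most 0.204 RPKM in any library.

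Of the 14 genes for annexin-associated membrane repair and the 11 genes for phosphatidylserine exposure, 0 were called in any comparison. The share of all genes called ran from 0% to 0.0549%. Between genotypes under NX/NG, 0 of the repair genes and 3 of the phosphatidylserine genes had an unadjusted p under 0.05, beside 8.39% of all genes. These 3 were higher in Cort-/- cells. Dysf, which encodes the repair protein dysferlin, had an averaged genotype difference of 0.28 (SE 0.063, limma adjusted p = 0.185) and an averaged environment difference of -0.28 (SE 0.063, limma adjusted p = 0.405). Ahnak, for a large scaffold that binds the annexin A2 complex, was at -0.26 after OGD-R in Cort+/+ cells (SE 0.093, limma adjusted p = 0.881). The averaged genotype difference of the ESCRT gene Chmp4c was 0.36 (SE 0.146, limma adjusted p = 0.459). Atp8a1, a flippase that returns phosphatidylserine to the inner leaflet where annexins bind, averaged 1.45 ± 0.0881 RPKM (SD, n = 3) in the wild type against 2.03 ± 0.0214 RPKM (SD, n = 2) under NX/NG (log2 fold change 0.46, SE 0.130, limma adjusted p = 0.464). In the same comparison the flippase gene Atp11a was at 0.21 (SE 0.059, limma adjusted p = 0.464) and the scramblase gene Plscr4 at 0.31 (SE 0.111, limma adjusted p = 0.550). Atp11b had an averaged environment difference of -0.28 (SE 0.116, limma adjusted p = 0.672). The highest levels of these lists were those of Cav1, for the caveolar protein caveolin, with 413 to 601 RPKM in Cort+/+ NX/NG libraries, and of the scramblase gene Plscr3, with 31.7 to 34.0 RPKM.

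Among family genes outside the 10, Anxa8 was the only other annexin to reach 1 RPKM. It averaged 4.33 ± 1.47 RPKM (SD, n = 3) in the wild type against 2.04 ± 0.522 RPKM (SD, n = 2) under NX/NG, a log2 fold change of -1.02 (SE 0.324, limma adjusted p = 0.515, unadjusted 0.0257). Of 13 other S100 genes tested under NX/NG 0 were called, 3 were lower and 1 was higher at an unadjusted p under 0.05, beside 8.39% of all genes passing and 0% called. Only 6 of the 13 reached 1 RPKM there. Of the genes under the unadjusted threshold only S100a1 did, at -0.57 (SE 0.177, limma adjusted p = 0.505), and the others lay below 1 RPKM. S100a4, a motility-related gene, was at -0.43 after OGD-R in Cort+/+ cells (SE 0.107). S100a6 had the highest level of this list, at 854 RPKM in the mean of the Cort+/+ NX/NG libraries.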

How the data were processed

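RNA-seq was analysed in 10 libraries of primary BECs. The authors' pipeline, reanalyzerGSE, was set to retain genes of low expression; the processing notes name edgeR, and the aligner, counter, build and annotation are not given in the sources used here. Labels and methods differ on kit, RNA input and read length. The deposited RPKM values were scaled by the authors within each environment. Their fold changes and p-values of genotype comparisons and 10 category columns were not used. RPKM times gene length gave whole reads within 0.05 for at least 99.9958% of values per library. Why the totals are nearly equal is not stated.

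Each comparison was fitted with limma 3.58.1 (R 4.3.3, trended empirical Bayes) on log2(RPKM + 0.1) over genes above 0, which understates changes of low genes, with Benjamini-Hochberg adjustment over all genes (FDR 0.05). Across environments, recovered reads were scaled together by trimmed means of M values. Scripts were tested on simulated data. Permutation tests used SciPy 1.17.1. Replicates are separate cultures. Positions are from GENCODE vM21. Members and lists were chosen with earlier results of these data known; list genes were named at an unadjusted p under 0.05 and at least 1 RPKM (at most 4 a list), plus the highest (some named genes are not reported here), and Plat and Pla2g4a after their values were seen. Alternatives are in the closing section.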

Additional observations from a re-analysis of the deposited data

How the results depend on the processing

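The count of members called was 0 in all 7 comparisons and stayed 0 under 107 alternatives: a pseudocount of 1, a filter at 1 RPKM in 2 libraries, normalization by quantiles, replicate block, limma-voom, all 4 groups in one fit, ribosomal RNA share as a covariate, each library left out and, chosen after seeing the data, limma-voom on filtered genes and both libraries low in ribosomal RNA left out. Of 1070 member log2 fold changes 116 changed sign, and in 114 of these neither fit had an unadjusted p under 0.05. The other 2 were S100a10 without Cort-/- OGD-R library 1: OGD-R against NX/NG in Cort-/- cells (main value -0.07, from -0.43 to 0.28 over the libraries left out) and the interaction (-0.01, from -0.37 to 0.35). Partner ratios kept their direction under all alternatives run.

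The count over all genes moved. For Cort-/- against Cort+/+ under NX/NG it was 0, but 20 with a pseudocount of 1, 124 with limma-voom, 53 with limma-voom on filtered genes, 4 with all 4 groups in one fit, and from 0 to 683 with a library left out (543 without Cort-/- library 1, 683 without library 2). Under OGD-R it was 0, but 5, 1 and 7 in the last 3 fits and from 0 to 710 (710 without Cort-/- library 1, 626 without library 3). The high values arose where 1 Cort-/- library remained, assumed to vary like the others. For OGD-R against NX/NG in Cort+/+ cells the 9 calls became 5 (pseudocount), 1 (limma-voom) and 0 in all other alternatives but quantile normalization. The 3 interaction calls became 0 with the pseudocount, filter, replicate block, both limma-voom fits, covariate or both low libraries left out, and 0 to 8 as single libraries were left out. The 15 calls of the averaged genotype difference became 8 (pseudocount), 32 (filter), 4 (replicate block), 208 and 148 (limma-voom, all and filtered genes) and 7 to 59 (libraries left out; 7 without Cort+/+ NX/NG library 1, 24 without its library 3, 59 without Cort-/- OGD-R library 3). The 6 calls of the averaged environment difference became 1, 20 and 15 (pseudocount and both limma-voom fits), 0 with the replicate block, the covariate or both libraries low in ribosomal RNA left out, and 0 to 6. The cause was not tested.

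Whether replicate numbers pair the libraries could not be settled. Deviations of same-numbered libraries correlated at 0.0080 and -0.12 under NX/NG and -0.52 and -0.44 under OGD-R between genotypes. Between environments in Cort+/+ cells they correlated at -0.06, -0.11 and 0.32. In a group of 2 libraries the deviations from the group mean are equal and opposite, so the correlations between genotypes cannot decide on pairing. The replicate block changed the call of 0 members. No block could be fitted for Cort-/- cells between environments, whose groups share 1 number. With 2 or 3 libraries a group, differences as small as those seen in most members could not be resolved, and the S100a10 and Anxa1 values after OGD-R rest on which Cort-/- library is kept.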

Other observations

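Of the other S100 genes, 1 was called in the averaged genotype difference: S100z, named after its values were seen. It had 1 read in each of the 4 Cort-/- libraries and 0 reads in each of the 6 Cort+/+ libraries, at or under a floor of 3 reads, so no fold is given. Its call (limma adjusted p = 0.0041) rests on the equal values within groups.

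Genes whose profile over the 10 jointly scaled libraries was among those most like that of Anxa2, among 4714 genes averaging 10 RPKM or more, were Sod1 (cytosolic superoxide dismutase), Utp3, Adh5 and Rrp7a. Their centred log2 values differed from those of Anxa2 by a root mean square of 0.0366 to 0.0442, with an SD of Anxa2 itself of 0.108. All points share libraries, library 3 of the Cort-/- OGD-R group among them, and the likeness is a description.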
